A study of Mus musculus with 14 samples.

Results

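Keratins are the intermediate filament proteins of epithelial cells, and 6 keratin genes are described here. They were picked because of their measured values. Krt18, Krt8, Krt7, Krt19 and Krt14 were taken from the sCAF count table, and Krt83 from the natural killer (NK) cell count table, in which it is followed across 3 groups. The 6 genes stand among 13230 genes listed in at least 1 of the 2 tables. There were 18 keratin genes listed for sCAF and 3 listed for NK cells, so that 13 keratin genes other than these 6 have a value in either table. Since the values chose the genes, the levels of the 5 keratins in sCAF and the tumour rise of Krt83 are given as a description and carry no test.

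Sorted mouse cells were sequenced in bulk from the 3' ends of their transcripts. The healthy spleen NK group holds 3 libraries of splenic NK cells from BALB/c mice without a tumour. The tumour-bearing spleen NK group holds 4 libraries from spleens of mice with a 4T1-GFP tumour, and the tumour NK group 4 libraries of NK cells from such tumours. A further 3 libraries are labelled sCAF, a class of cancer-associated fibroblasts from 4T1-GFP tumours. Tumour-bearing mice were BALB/c females aged 8 weeks when they received 100000 4T1-GFP cells in the lower left mammary fat pad. 4T1 is a mouse mammary carcinoma line, and GFP is the fluorescent protein used to keep its cells out of the sorted fractions. All mice are described as 8 weeks old and kept free of specific pathogens, and no genetic change of the host is named. The NK gate was GFP, EPCAM, CD3, CD31 and CD14 negative with CD45 and NKp46 positive, and the sCAF gate took cells without EPCAM, GFP, CD45, CD31 or PDPN, so fibroblasts with PDPN were left out. Only tumour tissue was digested with collagenase A and DNase, so tissue and digestion cannot be told apart in any tumour against spleen comparison. The replicates are called independent. Whether each came from 1 animal or from a pool is not given in the sources used here, and p-values measure the spread between these libraries.

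A keratin filament is built from pairs of a type I and a type II keratin, and cells normally make both partners together. Krt8 (type II) and Krt18 (type I) form the pair of simple epithelia such as the luminal cells of the mammary gland, often with Krt7 (type II) and Krt19 (type I). Krt14 is the type I keratin of basal layers and of mammary myoepithelial cells, where its usual partner is Krt5. Krt83 belongs to the type II hair keratins, which harden the hair shaft.

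Total counts ran from 559688 to 1966963 in the NK libraries and from 1318067 to 2230475 in the sCAF libraries. The lowest peak count of any gene in the NK table was 6, so genes below that have no NK value here. Krt18, Krt8, Krt7, Krt19 and Krt14 are among the genes without one. All 12 NK markers were listed in the NK table, and their summed level was 28259 to 31694 CPM (the share of the library's counts, scaled to a common total) in the 7 spleen libraries and 22325 to 24993 CPM in the 4 tumour libraries. The spleen libraries fell into 2 sides on the second principal component that cross the groups, with tumour-bearing replicates 1 and 2 and healthy replicate 1 on one side (called side a below) and the other 4 libraries on the other (side b).

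Krt83 lies on the minus strand of chr15:101485130-101491512 in GRCm38, the build also named mm10. Its neighbour Krt86 lies on the plus strand, at chr15:101473478-101479986, with 5143 bases between the 2 genes, and Krt81 follows on the minus strand at chr15:101459061-101463751. All 3 genes encode type II hair keratins. The coding sequence of Krt83 was 92.57% identical to that of Krt86 and 93.95% identical to that of Krt81, as aligned from the GENCODE M21 transcripts. The differences crowd at the end of the coding sequence, which is shown here because it is where reads of these look-alike genes can be told apart. The last 60 coding bases, stop codon included, are printed 5′ to 3′ with capitals for bases without an identical aligned partner, in Krt86 for the first line and in Krt83 for the other two.
Krt83: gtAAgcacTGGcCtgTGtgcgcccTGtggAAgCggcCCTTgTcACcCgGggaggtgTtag
Krt86: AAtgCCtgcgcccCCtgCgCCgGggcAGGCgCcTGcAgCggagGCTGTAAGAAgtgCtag
Krt81: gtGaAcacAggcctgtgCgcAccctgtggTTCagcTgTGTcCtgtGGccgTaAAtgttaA
In these 60 bases Krt83 had 23 such bases against Krt86, and in its other coding bases it had 84. The libraries read 3' ends. In the last 500 bases of the Krt83 transcript, 0 of 451 words of 50 bases occurred in the transcript of any other gene, and the word nearest the end that was shared with Krt86 or Krt81 stopped 498 bases before it. Farther from the end the genes do share sequence. Of all 1708 words of the Krt83 transcript, 336 occurred in Krt86 and 266 in Krt81, so a read from there could be counted for either gene or dropped. The read length and the treatment of such reads are not given in the sources used here.

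Krt83 was close to silent in spleen NK cells and well expressed in tumour NK cells. The 4 tumour NK libraries held 337, 198, 415 and 313 Krt83 counts in replicates 1 to 4. The tumour-bearing spleen libraries held 4, 10, 1 and 4 counts, and the healthy spleen libraries 8, 6 and 5. The lowest tumour library (198 counts) lay far above the highest spleen library (10 counts), although the tumour libraries were not the deepest ones.

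Scaled to library size, the level of Krt83 was 276.3, 286.9, 249.5 and 297.6 CPM in the tumour libraries, a mean of 277.6 CPM ± 20.6 (SD, n = 4). In tumour-bearing spleens it was 3.05, 5.58, 0.515 and 2.89 CPM, a mean of 3.01 CPM ± 2.07 (SD, n = 4). In healthy spleens it was 12.3, 3.21 and 4.13 CPM, a mean of 6.56 CPM ± 5.02 (SD, n = 3). The order of the groups was therefore tumour, healthy spleen, tumour-bearing spleen, and the last 2 overlapped while the tumour group stood apart from both. In the mean of the tumour libraries 631 of 10210 genes (6.18%) had a higher level than Krt83. In sorted bulk samples a change in the share of cells that make a transcript and a change in the amount per cell cannot be told apart.

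The fitted log2 fold change of Krt83 was 6.50 (SE 0.305) in tumour NK against tumour-bearing spleen NK and 5.70 (SE 0.336) against healthy spleen NK. Both comparisons use the same tumour libraries. Between the 2 spleen groups it was −0.81 (SE 0.545), with overlapping libraries. Pooled over libraries, 1263 of 5014167 counts in tumour NK belonged to Krt83, against 19 of 6370918 in tumour-bearing spleens and 19 of 3545262 in healthy spleens. These pooled levels give a ratio of 84.5 (exact 95% interval 53.9 to 141) against tumour-bearing spleens and 47.0 (29.97 to 78.3) against healthy spleens. The intervals cover counting error only. The spleen counts are so few that the size of the fold rests on them. With tumour-bearing spleen libraries of side a alone the log2 fold change was 5.91, and with those of side b alone 7.40. Against the single healthy library of side a it was 4.46. As background to the separation of Krt83, 29.7% of all 8471 genes tested had tumour and tumour-bearing spleen libraries that did not overlap, and 34.8% did so against healthy spleens. Krt83 was chosen on this contrast, so nothing is read from that.

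Krt86, the neighbour on the other strand, stayed low in every NK library. It had 3, 1, 7 and 4 counts in the tumour libraries. The spleen libraries had 4, 4, 14 and 8 counts (tumour-bearing) and 2, 11 and 8 counts (healthy). Its mean was 2.98 CPM ± 1.27 (SD, n = 4) in tumours, 4.57 CPM ± 2.32 (SD, n = 4) in tumour-bearing spleens and 5.19 CPM ± 1.86 (SD, n = 3) in healthy spleens. The groups overlapped, and tumour NK, the highest group for Krt83, had the lowest mean for Krt86. Krt86 was too low for the filter of the main model. In the edgeR model without that filter (10210 genes) it differed by −0.55 on the log2 scale (SE 0.495, adjusted p = 0.448) in tumour NK against tumour-bearing spleens and −0.80 (SE 0.536, adjusted p = 0.287) against healthy spleens.

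Krt10, the type I keratin of the upper epidermis, was the only other keratin gene with NK values. It had 1, 0, 3 and 1 counts in the tumour libraries, 2, 6, 4 and 3 in those of tumour-bearing spleens and 0, 5 and 3 in those of healthy spleens. Its level never passed 3.35 CPM, and the groups overlapped. The log2 fold change was −1.09 (SE 0.738, adjusted p = 0.299) against tumour-bearing spleens and −0.94 (SE 0.835, adjusted p = 0.436) against healthy spleens, again in the edgeR model without the filter. Krt83 was thus the one keratin gene of the NK table with a level above 10 CPM in any library. No type I keratin that could pair with a type II keratin, other than Krt10, has an NK value here.

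**Figure D1:**
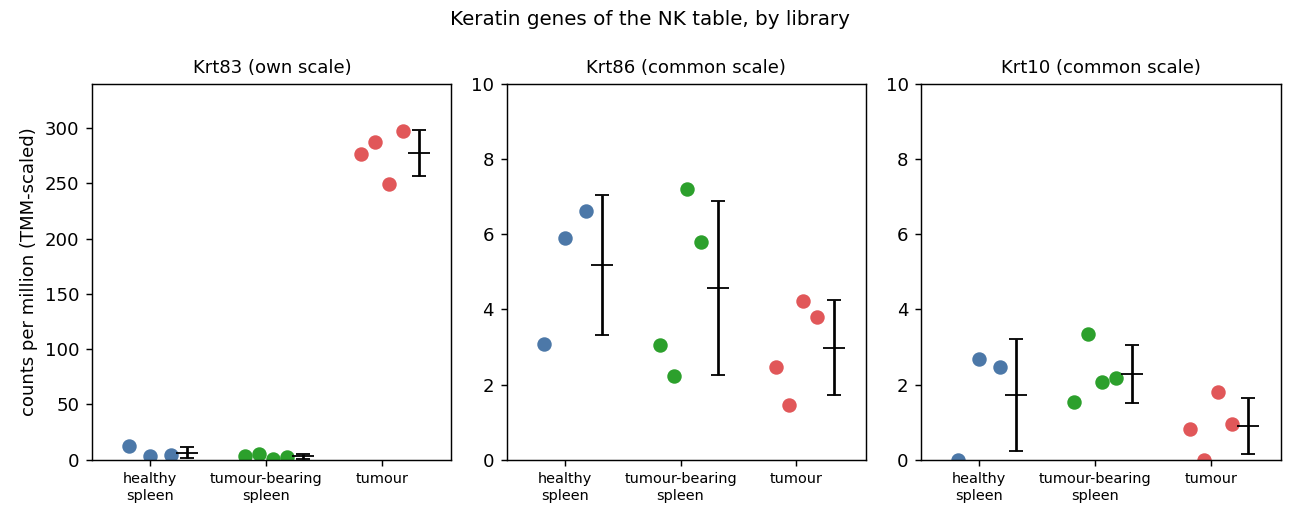
Level of the 3 keratin genes of the NK table (CPM on TMM library sizes, linear axes, with a wider scale for Krt83 than for Krt86 and Krt10). Each point is a library, and the bar beside each group is its mean ± SD. Krt83 lies between 249.5 and 297.6 CPM in the 4 tumour libraries and at or below 12.33 CPM in the 7 spleen libraries, while Krt86 and Krt10 stay under 10 CPM in all.

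The other genes of the filament system were followed through a list of 36 genes. Most of them encode other intermediate filament proteins, nuclear lamins, the linkers that bind filaments or the desmosome plaques that anchor keratins. The list also held genes outside these classes, among them Krtcap2 and Krtcap3, keratinocyte-associated proteins that are not filament proteins. The NK table listed 18 of the 36 genes and 13 passed the filter, Krtcap2 and Krtcap3 included. In tumour NK against tumour-bearing spleen NK, 3 of the 13 rose and 1 fell in edgeR's quasi-likelihood test with Benjamini-Hochberg adjustment, where 15.8% of all 8471 genes rose and 13.2% fell. The 4 called of 13 are close to the 29.0% called among all genes. The median log2 fold change of the 13 genes was 0.11, beside 0.0014 for all genes. Under upper-quartile scaling the split of the calls over all genes turned from 1338 higher and 1115 lower to 1091 higher and 1530 lower. None of the calls on these list genes changed direction with it.

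Lmna, which encodes the A-type lamins under the nuclear envelope, moved most. Its level was 418.1, 681.1, 639.8 and 466.8 CPM in the tumour libraries, 37.4, 62.0, 44.3 and 70.9 CPM in tumour-bearing spleens and 32.4, 40.1 and 57.0 CPM in healthy spleens. The tumour libraries stood far above all 7 spleen libraries. The log2 fold change was 3.36 (SE 0.222, edgeR adjusted p = 9.8e-09) against tumour-bearing spleens and 3.64 (SE 0.261, adjusted p = 2.8e-08) against healthy spleens.

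Lmnb1, a B-type lamin, had 61.3 to 68.0 CPM in the tumour libraries, 28.8 to 49.5 CPM in tumour-bearing spleens and 21.6 to 26.4 CPM in healthy spleens, with no overlap between any 2 groups. It rose by 0.70 (log2, SE 0.173, edgeR adjusted p = 0.00473) against tumour-bearing spleens and by 1.42 (SE 0.208, adjusted p = 3.06e-05) against healthy spleens. The first of these calls was lost when side a alone served as the spleen group. Pkp4, a plakophilin relative of cell junctions, rose against tumour-bearing spleens from 24.9 to 40.6 CPM (log2 fold change 0.70, SE 0.212, edgeR adjusted p = 0.0171). That call was lost without tumour-bearing spleen replicate 3, without tumour replicate 4 or with side b alone.

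Plec encodes plectin, the linker that ties intermediate filaments to junctions and to the other cytoskeletal systems. It fell in tumour NK, from 377.2 CPM ± 61.7 (SD, n = 4) in tumour-bearing spleens and 387.2 CPM ± 48.2 (SD, n = 3) in healthy spleens to 204.8 CPM ± 33.7 (SD, n = 4). The highest tumour library (249.5 CPM) was below the lowest spleen library (288.1 CPM). The log2 fold change was −0.88 (SE 0.154, edgeR adjusted p = 0.000221) and −0.91 (SE 0.165, adjusted p = 0.000303). Vim, the main filament protein of leukocytes, had means of 1008, 948.8 and 1018 CPM in tumour, tumour-bearing spleen and healthy spleen NK, and its libraries overlapped between all groups. It did not pass the test in any contrast (adjusted p = 0.722 and 0.963 for the tumour contrasts in edgeR).

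In tumour NK against healthy spleen NK, 2 of the 13 genes rose (Lmna and Lmnb1) and 2 fell (Plec and Tchp), where 30.5% of all genes were called, 16.5% as higher and 14.0% as lower. The median of the 13 was 0.129, and 0.0164 for all genes. Tchp, which encodes a keratin-binding protein named trichoplein, fell from 21.3 to 10.8 CPM (log2 fold change −0.95, edgeR adjusted p = 0.0387). Its call was lost in 7 of the alternative fits. Between the 2 spleen groups 0 of the 13 genes were called, by edgeR as by DESeq2, where 1.58% of all genes were called (1.23% higher, 0.354% lower). In that contrast 2 of the 13 had an unadjusted p under 0.05, and the stronger was Lmnb1 with a log2 fold change of 0.73 (SE 0.21, adjusted p = 0.0995). Lmnb1 was called there without tumour-bearing spleen replicate 3 (adjusted p = 0.0365), and Krtcap2 was called with the side of the spleen split as a block (adjusted p = 0.0104).

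Epithelial and carcinoma cells are the usual source of keratin transcripts in a tumour, so a list of 34 epithelial genes other than keratins was measured in the same libraries. The NK table listed 10 of them. Their summed level was 175.7 to 213.0 CPM on raw totals in tumour NK, 65.9 to 76.1 CPM in tumour-bearing spleens and 71.5 to 80.6 CPM in healthy spleens, so it moved with Krt83. Of the 5 that passed the filter, Cdh1 did so through the tumour libraries alone, where it is high, so its rise is given below as values with no test. Of the other 4, edgeR called 3 higher in tumour NK against tumour-bearing spleens, where 15.8% of all genes rose, and 2 higher against healthy spleens, where 16.5% rose. None of them was called lower. The medians of these 4 were 1.02 and 0.865. Ap1m2 was called in neither contrast and did not share the rise. Its mean was 8.3 CPM in tumour NK, 7.4 CPM in tumour-bearing spleens and 14.4 CPM in healthy spleens. The log2 fold change of Ap1m2 was 0.11 (SE 0.373, edgeR adjusted p = 0.86) against tumour-bearing spleens and −0.84 (SE 0.379, adjusted p = 0.102) against healthy spleens. Between the spleen groups 0 of 4 were called by edgeR or DESeq2, and 2 had an unadjusted p under 0.05.

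Cdh1 encodes E-cadherin. It had 58, 32, 44 and 50 counts in tumour NK and 0 to 4 counts in each spleen library. Its mean was 41.98 CPM ± 10.4 (SD, n = 4) in tumours, 1.13 CPM ± 1.30 (SD, n = 4) in tumour-bearing spleens and 1.21 CPM ± 1.65 (SD, n = 3) in healthy spleens. The fitted log2 fold change was 5.13 (SE 0.513) against tumour-bearing spleens and 5.51 (SE 0.652) against healthy spleens. Muc1, a membrane mucin, rose by 2.07 (edgeR adjusted p = 7.21e-07) and 2.25 (adjusted p = 2.26e-06) in the same 2 contrasts. Spint2, a protease inhibitor, rose by 0.94 (adjusted p = 0.0105) and 1.30 (adjusted p = 0.00314). Sfn rose by 1.10 against tumour-bearing spleens (adjusted p = 0.00429), and its difference from healthy spleens was 0.43 (adjusted p = 0.271).

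Epcam, the antigen of the negative gate, stayed near 0, with 9, 2, 2 and 5 counts in tumour NK, at most 2 in a tumour-bearing spleen library and 0 in all healthy spleen libraries. The tumour mean of Epcam was thus 3.77 CPM on raw totals, beside 39.1 CPM for Cdh1. Whether cells other than NK cells added to the Krt83 level was not tested. Krt83 itself had 0 counts in all 3 libraries labelled sCAF, from the same tumour model, where 3 counts correspond to 1.35 to 2.28 CPM and the exact 95% upper limits are 1.65, 2.80 and 2.77 CPM. Of the fibroblast list, 6 of 16 genes had an NK value. Their sum was 1376 to 2026 CPM in tumour NK, 919.9 to 1103 CPM in tumour-bearing spleens and 468.1 to 691.7 CPM in healthy spleens. Nearly all of it came from S100a4 and Thy1, while Col1a2, Col3a1, Fn1 and Sparc had 18 counts or fewer in every tumour NK library.

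The leukocyte list, with 12 of 16 genes listed, summed to 2930 to 3457 CPM in tumour NK and 2917 to 3927 CPM in the spleen libraries, most of it from Ptprc and Fcer1g, which NK cells also express. Its 8 myeloid genes (Lyz2, Csf1r, Cd68, C1qa, C1qb, S100a8, S100a9 and Cd14) moved with Krt83. Their summed level was 84.4, 189.5, 185.5 and 78.4 CPM in tumour NK replicates 1 to 4, against 12.4 to 31.5 CPM in the 7 spleen libraries. S100a9, a calgranulin of neutrophils and monocytes, had the highest of these means, 53.6 CPM ± 36.8 (SD, n = 4) in tumour NK, 4.70 CPM ± 4.19 (SD, n = 4) in tumour-bearing spleens and 2.25 CPM ± 2.70 (SD, n = 3) in healthy spleens. Among the 4 tumour libraries, replicate 4 had the lowest myeloid sum and the highest Krt83 level (297.6 CPM). The part of myeloid cells in the Krt83 rise was not tested.

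**Figure D2:**
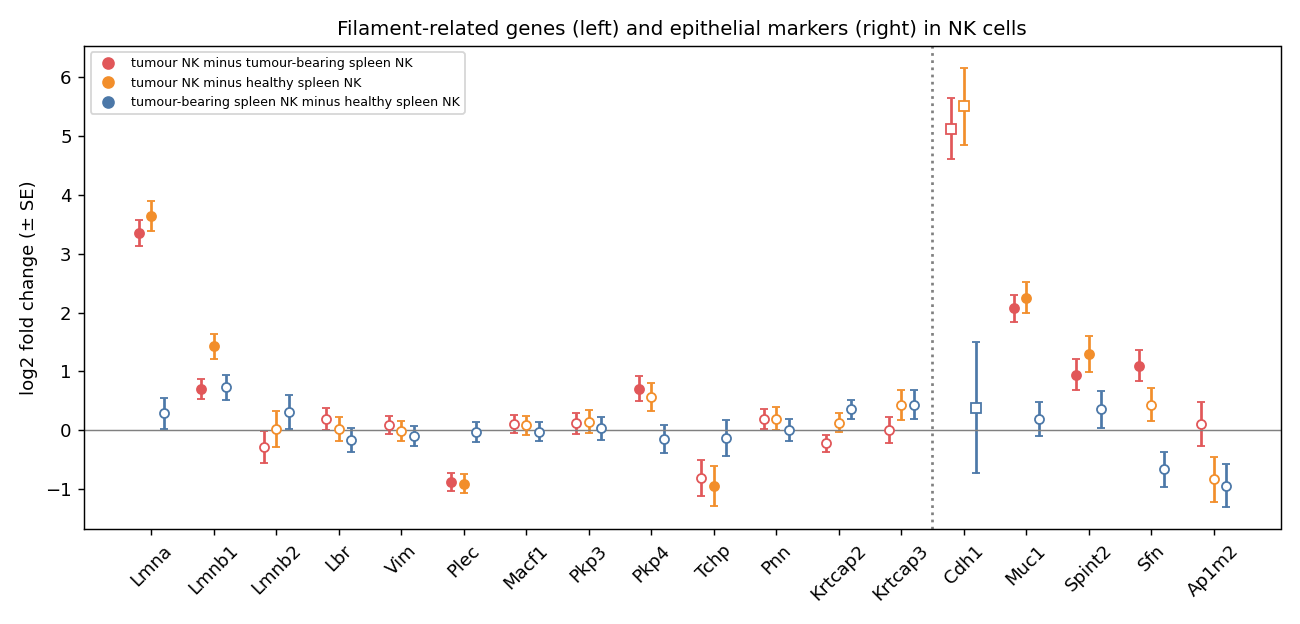
Fitted log2 fold change (± SE) of the 13 genes of the filament list (left of the dotted line) and 5 epithelial genes (right) that passed the filter in NK cells, for the 3 contrasts. Filled points passed an adjusted p of 0.05 in edgeR, open circles did not, and squares (Cdh1) carry no test. Lmna (3.36 and 3.64) and Cdh1 (5.13 and 5.51) stand out on the high side, Plec (−0.88 and −0.91) on the low side, and no point is filled between the spleen groups.

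Several genes followed the Krt83 pattern closely over the 11 NK libraries. Likeness was measured as Pearson's r of log2 CPM (prior count 2) for the 8471 genes tested. Predicted genes (Gm or Rik names) were left out of the ranking. Likeness is a description, since the 11 points form 2 clusters, tumour and spleen, and share the libraries. The highest r was 0.99 for Spsb1, which encodes an adaptor of a ubiquitin ligase, with a mean of 50.7 CPM in tumour NK, 1.87 CPM in tumour-bearing spleens and 4.14 CPM in healthy spleens. Smad7, an inhibitor of TGF-beta signalling, came next with 468.8, 74.9 and 78.9 CPM in the same order. The list goes on with Trf (transferrin), Serpinb1a, Gpr132, Mxd1, Dgat1, Cxcl10, Gzme and Dhx40, all with r of at least 0.98.

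Among these, Dgat1, an enzyme of triglyceride synthesis, reached the highest tumour level, 1823 CPM ± 195 (SD, n = 4), from 77.3 CPM in tumour-bearing and 92.8 CPM in healthy spleens. Cxcl10, an interferon-induced chemokine, had 148 CPM in tumour NK and 4.91 and 4.78 CPM in the spleen groups. Gzme, a granzyme gene, had 23 to 42 counts in the tumour libraries and at most 1 count in any spleen library. Lowest in likeness were Racgap1, a gene of cell division (r of −0.98), Scimp and H2bu2. Racgap1 had 39.0 CPM in tumour NK against 84.4 and 74.0 CPM in tumour-bearing and healthy spleens.

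**Figure D3:**
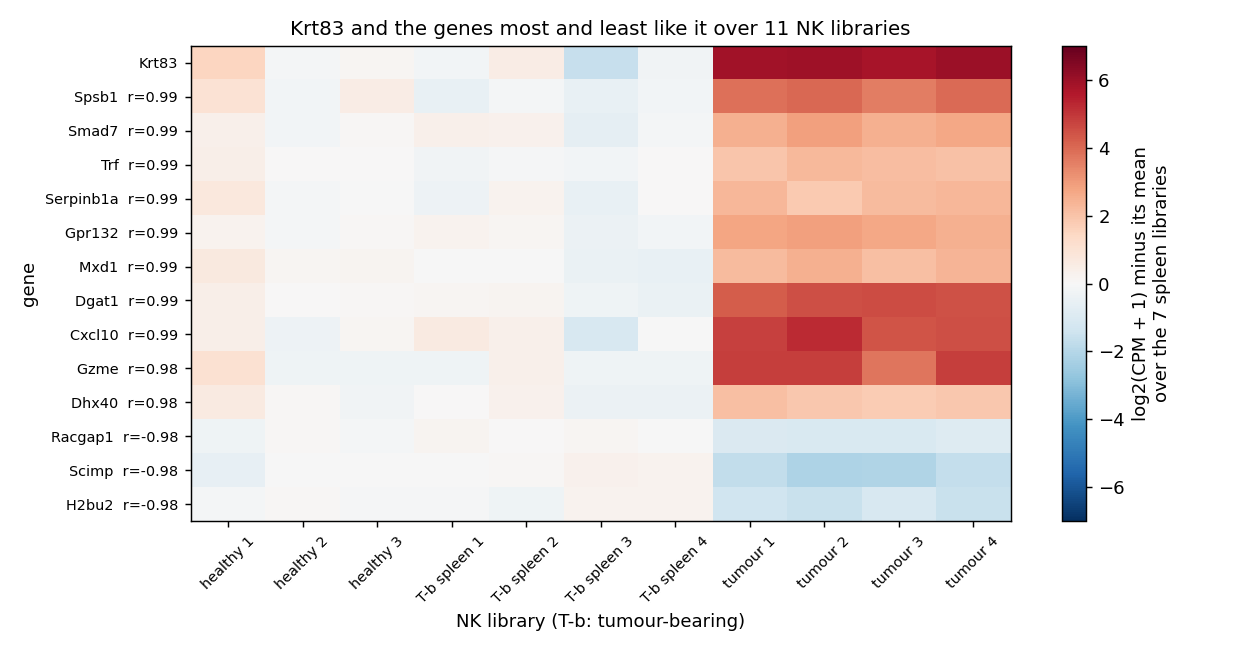
Krt83 and the 10 genes most like it and 3 least like it, by Pearson's r over 11 NK libraries, with predicted genes left out. Colour is log2(CPM + 1) of each library minus the mean of the 7 spleen libraries. All 4 tumour columns are red for Krt83 and the 10 like genes, from Spsb1 to Dhx40, and blue for Racgap1, Scimp and H2bu2, and the 7 spleen columns stay pale.

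In the libraries labelled sCAF the keratins formed a steep order led by the Krt18 and Krt8 pair. Krt18, on the plus strand of chr15:102028180-102032027, had 5131, 3945 and 2997 counts in replicates 1 to 3, which is 2300, 2993 and 2250 CPM on raw totals. Its mean of 2515 CPM ± 415 (SD, n = 3) was the rank 42 of 12235 genes. Krt8, 23697 bases from Krt18 and on the minus strand (chr15:101996698-102004482), had 826.3, 763.2 and 690.8 CPM, a mean of 760.1 CPM ± 67.8 (SD, n = 3) and rank 189. Every library had Krt18 above Krt8, and the highest library was 1.33 times the lowest for Krt18 and 1.20 times for Krt8.

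Krt7 (chr15:101411043-101430313, plus strand) was the third, with 154.7, 338.4 and 356.6 CPM, a mean of 283.2 CPM ± 112 (SD, n = 3) and rank 575. Replicate 1 was below the other two, and its exact 95% counting interval did not overlap theirs. Gene models on the other strand overlap Krt8 (Gm36026) and Krt7 (Gm671). Whether counting used the strand is not given in the sources used here.

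The remaining pair lie together on chromosome 11, 54496 bases apart and both on the minus strand. Krt19 (chr11:100140810-100148665) had 44, 41 and 58 counts, which is 19.7, 31.1 and 43.6 CPM, a mean of 31.5 CPM ± 11.9 (SD, n = 3). Krt14 (chr11:100203162-100207548) had 20, 49 and 14 counts, which is 8.97, 37.2 and 10.51 CPM, a mean of 18.9 CPM ± 15.9 (SD, n = 3). Replicate 2 was the high one for Krt14, and without it the mean was 9.74 CPM. The ranges of Krt19 and Krt14 overlapped, so these 2 neighbours in the order did not differ beyond their spread, whereas each of the 3 genes above them lay apart from the next. Among the last 500 bases of the Krt14 transcript, 43 of 451 words of 50 bases also occur in Krt17 and 6 in Krt16. The split of counts between Krt14 and those genes is therefore uncertain. For Krt8, Krt7 and Krt19 no such word was shared with another gene, and for Krt18 there were 5, in Gm5200.

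Set per kilobase of transcript, the order of the 5 levels was the same. The mean level was 1750 CPM per kilobase for Krt18, 388.2 for Krt8, 69.2 for Krt7, 20.0 for Krt19 and 11.1 for Krt14. In 3' end libraries a longer transcript is not expected to give more counts, so the CPM order is the more direct one.

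The partners were unequal in counts. Krt18 counts were 2.78, 3.92 and 3.26 times the Krt8 counts in replicates 1 to 3. Over all keratin genes, type I counts were 2.46, 2.79 and 2.22 times the type II counts. Krt18 alone took 67.5% of all keratin counts in replicate 1 (Clopper-Pearson 95% interval 66.4 to 68.6), 71.1% in replicate 2 (69.9 to 72.3) and 66.2% in replicate 3 (64.8 to 67.6). The 5 keratins together took 97.1%, 98.9% and 98.6%, and all keratins 0.341%, 0.421% and 0.340% of the library.

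Among the other keratins, Krt16, a type I keratin of stressed epidermis, had a mean of 37.7 CPM, with 66.4 CPM in replicate 1 and 24.8 CPM or less in the other two, and its range overlapped that of Krt19. Krt10 had a mean of 9.28 CPM and Krt80 of 7.08 CPM. Krt13 had 13.0, 2.28 and 0 CPM. Krt15, Krt17 and Krt23 had means of 2.71 CPM or less. Krt5, the usual partner of Krt14, had 0 counts in all 3 libraries, as had Krt20, Krt25, Krt35, Krt36 and Krt83.

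**Figure D4:**
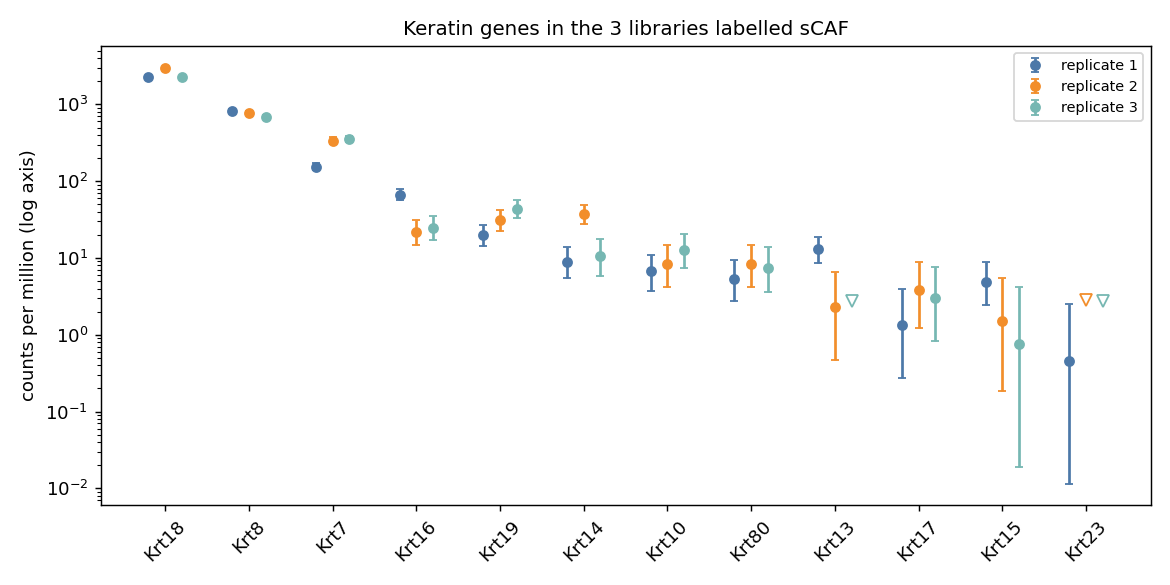
Level of the keratin genes with any count in the 3 libraries labelled sCAF (CPM on raw totals, log axis). Points are libraries with exact 95% counting intervals, and open triangles are upper limits of libraries with 0 counts. Krt18 (2250 to 2993 CPM) and Krt8 (690.8 to 826.3 CPM) stand above Krt7, and the other genes lie under 70 CPM.

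The markers in these libraries were mixed, with fibroblast and epithelial genes side by side. All 16 genes of the fibroblast list were listed, with a summed level of 6603 to 7876 CPM. Fn1, S100a4 and Sparc, which many other cell types also express, made up 86.6%, 84.7% and 79.5% of it. The fourth, the collagen gene Col1a2, had 178.4, 369.5 and 414.5 CPM, above Krt7 and below Krt8 in every library. Col3a1 had a mean of 196.6 CPM and Col6a1 of 160.8 CPM, both below Krt7 in the mean.

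The other members of the fibroblast list were lower. Pdgfrb had a mean of 102.9 CPM, Col1a1 had 46.2, 73.6 and 81.8 CPM, and Pdgfra 61.4, 40.2 and 84.8 CPM. Lum and Fap had between 1 and 3 counts in each library, and Pdpn, the antigen sorted against, had 2, 2 and 5 counts. In the mean, Krt18 was thus above every gene of the fibroblast list but Fn1, and Krt8 above every one but Fn1, S100a4 and Sparc. The cells are called by their label, as libraries labelled sCAF, and given no other name.

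Of the 34 epithelial genes outside the keratins, 27 were listed, and their summed level was 4592, 5069 and 5410 CPM from the lowest to the highest library. Wfdc2 and Lcn2, genes of secreted proteins of epithelia, had means of 1855 CPM ± 193 and 1315 CPM ± 215 (SD, n = 3) and made up 62.5%, 59.7% and 66.8% of that sum. Itgb4, an integrin chain of hemidesmosomes, had 521.2 CPM, and Lsr, a protein of tight junctions, had 292.4 CPM. Epcam, sorted against, had 5.83, 27.3 and 24.8 CPM, and Cdh1 had 8.52, 40.2 and 18.8 CPM, with replicate 1 the lowest in both. The libraries had no common order, since replicate 1 was also the lowest for Krt7, Krt19 and Krt14 but the highest for Krt8 and for the epithelial genes Itgb4, Sfn and St14. Cdh3 was at 0 in all 3 libraries. The part of epithelial or carcinoma cells in the keratin levels was not tested.

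Markers of other keratin-bearing cells were lower. The mesothelial list, with 6 of 8 genes listed, summed to 134.1 to 253.8 CPM, nearly all from Msln (187.5 CPM). Bnc1 followed at 4.31 CPM, Calb2 and Lrrn4 were under 1 CPM, and Upk1b was at 0. The luminal mammary list, with 6 of 12 genes, summed to 261.3 to 424.1 CPM, mostly from Areg and Gata3, ahead of Esr1 and Foxa1, with Pgr at 0. The basal list, with 9 of 10 genes, summed to 452.0 to 653.7 CPM, of which Itgb4 was the main part, ahead of Lamb3, Myh11 and Mylk. The leukocyte list summed to 89.5 to 171.9 CPM, led by Cd14 (50.7 CPM), Lyz2, Cd68 and C1qa, and the endothelial list to 10.3 to 12.1 CPM, led by Egfl7 (8.12 CPM), Pecam1, Kdr and Cldn5. The pericyte and smooth muscle list, led by Tagln, Rgs5, Notch3 and Des, reached 593.9 CPM in replicate 3 against 105.8 and 145.7 CPM in the other two, with Rgs5 at 220 counts there. Among the filament list, Vim, the filament protein of mesenchymal cells, had a mean of 9225 CPM ± 245 (SD, n = 3), and Lmna 4412 CPM ± 639 (SD, n = 3), both above Krt18. Plec (442.1 CPM) and Krtcap2 (252.6 CPM) followed, and Dsp, which encodes the desmosome linker of keratins, had 5.23 CPM ± 2.70 (SD, n = 3).

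**Figure D5:**
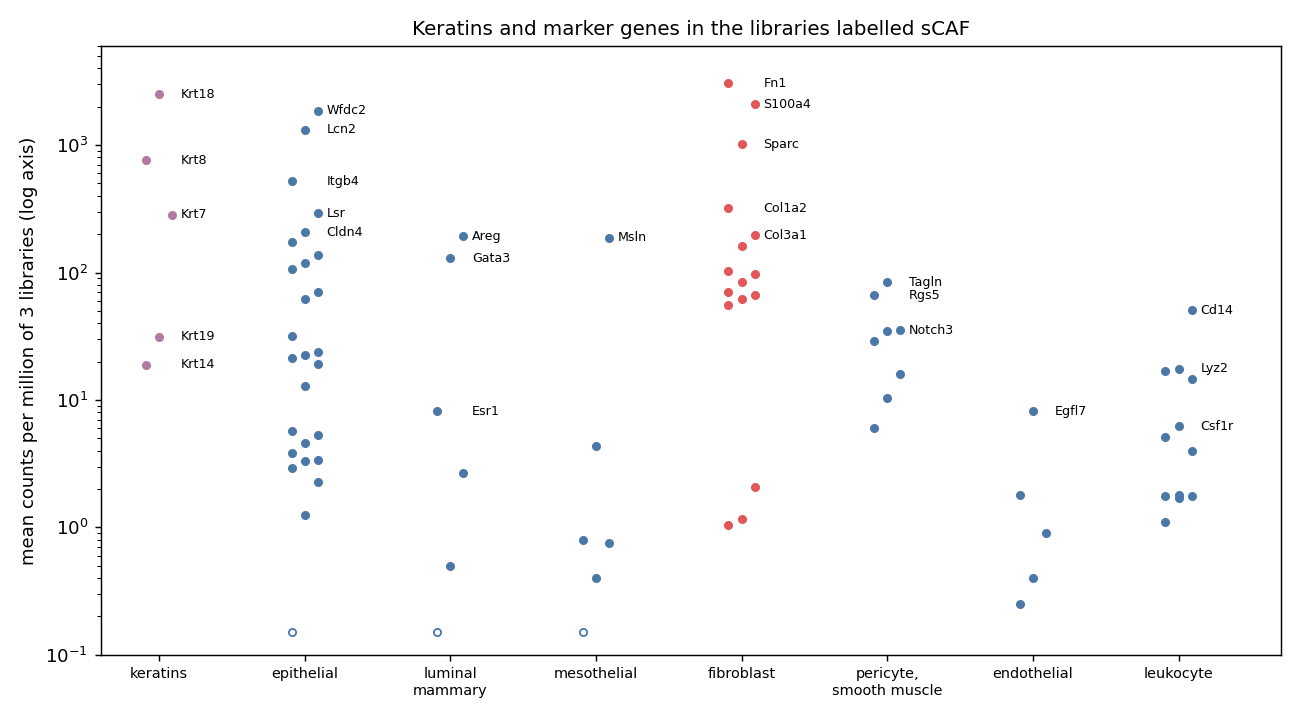
Mean level over the 3 libraries labelled sCAF (CPM, log axis) of the 5 keratins and of the genes of 7 marker lists, each point a gene, with open points at the bottom for genes at 0. Krt18 (2515 CPM) lies beside Wfdc2, Fn1 and S100a4, Col1a2 (320.8 CPM) lies just above Krt7 (283.2 CPM), and most other genes of the fibroblast list lie under it.

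The 2 tables were set apart in their keratins. Krt83 was the highest keratin in tumour NK and in the mean of healthy spleen NK, whereas in tumour-bearing spleens Krt86 had the higher mean (4.57 against 3.01 CPM), and in the libraries labelled sCAF Krt83 had no count. Krt10 had means of 0.89 to 2.28 CPM over the NK groups and 6.73, 8.35 and 12.8 CPM in the libraries labelled sCAF. The tables were counted and filtered separately, so no fold between them is given.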

How the data were processed

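Counts per gene symbol, deposited by the authors as 2 tables (11 NK libraries, 3 sCAF libraries), were used as they stand. Libraries were 3' end polyA libraries, per the labels' protocols. Per the submitters' processing notes, bcl2fastq, STAR 2.4.2a, HTSeq and mm10 were used. Annotation, counting settings and use of molecular identifiers are not given in the sources used here. Low NK genes had been removed before deposit. A header name of each table was joined to the next by spaces, and the values under them were assigned by position.

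NK genes were kept by filterByExpr (8471 of 10210), scaled by TMM (factors 0.91 to 1.17) and fitted in edgeR 4.0.16 (R 4.3.3) with 1 robust quasi-likelihood model over 11 libraries, with 3 contrasts and an adjusted p under 0.05 as the threshold. The fit was tested on simulated data. DESeq2 1.42.0, other scalings, no filter, a replicate block and leaving out each library were alternatives. sCAF levels are CPM on raw totals, with exact 95% intervals. Depth per library sets a limit of 1.35 to 5.36 CPM for a count of 0 (3 counts). Positions and transcripts came from GENCODE M21, coding sequences were aligned with Biopython 1.88.

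The members and lists were chosen with earlier results of these data known. Named were the 6 keratins, every other keratin, called genes of the filament and epithelial lists (at most 4 each way), the 10 most and 3 least like Krt83, the 4 highest genes of each sCAF marker list with those at 0, and the 2 highest NK genes of the epithelial, fibroblast and leukocyte lists. Dsp, Epcam, Cdh1, Sfn, St14, Col1a1, Col3a1, Col6a1, Pdgfra, Pdgfrb, Lum, Fap and Pdpn in sCAF were named after their values were seen. So were Vim, Ap1m2, Epcam, Col1a2, Col3a1, Fn1, Sparc and the 8 myeloid genes in NK.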

Additional observations from a re-analysis of the deposited data

Results flagged for a closer look

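In all, 54 groups of 4 tumour NK or tumour-bearing spleen NK libraries, each with the level of 1 named gene, were checked for a library far from the others, and 3 were flagged (Dixon's gap over range, at a limit that chance passes in about 1 of 20 groups). Cdh1 in tumour NK replicate 3 was at 26.46 CPM, below 46.37, 47.54 and 47.55 CPM in the other tumour libraries. Gzme in the same library was at 15.63 CPM, below 33.33, 34.23 and 34.43 CPM. Gzme in tumour-bearing spleen NK replicate 2 was at 0.5582 CPM, which is 1 count, where the other 3 libraries had 0. Krt83 was lowest in tumour replicate 3 too, at 249.5 CPM, but was not flagged there.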

How the results depend on the processing

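The Krt83 fold changes kept their sign in every setting run. Under upper-quartile scaling the majority among all calls did turn, to 1091 higher and 1530 lower against tumour-bearing spleens and to 1154 higher and 1569 lower against healthy spleens. The Krt83 level by group moved by less than 1 SD in all 17 alternatives, and its fold change in 36 of 40. Against tumour-bearing spleens the log2 fold change of Krt83 lay between 6.07 and 7.08 with any single library left out, the highest without tumour-bearing spleen replicate 2. It was 5.91 with side a and 7.40 with side b of the spleen libraries alone, and against healthy spleens 4.46 with side a alone. The side settings were chosen after seeing the data. Calls over all genes were 2582 for tumour against healthy spleen NK and 1471 with side a alone. Between the spleen groups 134 genes were called, from 42 to 125 when a library was left out (42 without healthy replicate 2, 67 without healthy replicate 3), and 691 with the side as a block. The filament list there had 0 calls, 0 to 1 when a library was left out and 1 with the side block. The epithelial counts, Cdh1 included, stayed within 1.5 times in all 41 alternatives, but not all were equal: the 4 calls against tumour-bearing spleens were 6 without the filter and 5 with DESeq2, and the 3 against healthy spleens were 4 without the filter, with DESeq2 and with side b alone, where 1 of the 4 was lower. Krt8 in sCAF was 882.6 CPM with totals freed of ribosomal protein genes. Same-numbered tumour-bearing spleen and tumour libraries had deviations correlated at −0.05, 0.29, 0.00 and 0.21. Those with different numbers lay between −0.25 and 0.16. So few and weak values cannot settle whether the numbers pair the libraries. A replicate block was fitted on the tumour-bearing spleen and tumour libraries alone, with 8007 genes tested. It called 2820 genes, with 5 of the filament list. Without the block the same libraries, in a fit not planned beforehand, gave 2509 genes, with 4 of the filament list. The main model called 2453 of 8471 genes. The Krt83 fold change with the block was that of the main model to 2 decimals. Few spleen counts of Krt83 limit its fold, and 3 libraries without a comparison group limit the sCAF levels.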
